A study of Rattus norvegicus with 18 samples.

Results

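The 8 genes described here, Hmgcs1, Idi1, Fdps, Fdft1, Sqle, Lss, Cyp51 and Dhcr7, encode enzymes of cholesterol synthesis, and they were taken by gene symbol from the 15075 RefSeq identifiers of the mRNA count table. Each was represented by 1 identifier, and each passed the filter on low counts (more than 10 read-pairs in at least 6 rats), with between 256 (Lss) and 20238 (Hmgcs1) read-pairs per rat. Poly(A) RNA was sequenced from C6-C8 dorsal root ganglia (DRG) of adult Lister hooded rats, with the ganglia of the treated side of a rat pooled into 1 library and 6 rats in each of 3 groups. Naïve rats were unoperated and received no vector. bPYX+GFP and bPYX+NT3 rats (GFP and NT3 rats below) had both corticospinal tracts cut in the medullary pyramids (bilateral pyramidotomy, bPYX), and 24 h later an injection into the forelimb flexor muscles of 1 side of the viral vector AAV1 with the CMV promoter, which carried EGFP or human prepro-neurotrophin-3 (NT3). Ganglia of the injured rats were taken 10 weeks after the pyramidotomy. Lesion and vector cannot be told apart in comparisons with naïve rats, and only NT3 against GFP separates the transgene.

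Cholesterol is built from acetyl-CoA. Hmgcs1 makes HMG-CoA, the precursor of mevalonate. Idi1 interconverts the isoprene building blocks that are made from mevalonate, and Fdps joins them into farnesyl diphosphate, which also feeds protein prenylation and ubiquinone synthesis. Fdft1 condenses farnesyl diphosphate to squalene, the step that commits it to sterols. Sqle epoxidises squalene, Lss closes the rings to give lanosterol, Cyp51 removes a methyl group from lanosterol, and Dhcr7 carries out a last reduction that yields cholesterol. Transcription of these genes is raised by the sterol-sensing factor SREBP-2 (Srebf2) when membrane sterol is low, with help from NF-Y and Sp1 at the promoters. In peripheral ganglia and nerve, Schwann cells make much of the cholesterol of myelin, and satellite glia and neurons also express the pathway.

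Promoter sequences are shown for the 4 of the 8 genes whose window held the NF-Y box, because these 4 fall on both sides of the pattern between rats described further down. RefSeq promoter windows on build GRCr8, each of 300 bases from 250 before to 50 after the annotated start, were at hand for 6 of the 8 genes, those other than Fdft1 and Sqle. The 250 bases before the start are written 5′ to 3′ on the strand of the gene, with NF-Y boxes (CCAAT, read on either strand) in capitals.
Hmgcs1, chr2:53382054-53382303, plus strand: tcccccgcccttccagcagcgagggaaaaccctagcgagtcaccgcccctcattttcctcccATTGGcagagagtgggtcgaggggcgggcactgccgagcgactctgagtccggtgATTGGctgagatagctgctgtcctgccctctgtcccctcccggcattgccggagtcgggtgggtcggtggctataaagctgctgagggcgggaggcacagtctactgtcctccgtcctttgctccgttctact
Idi1, chr17:66547525-66547774, minus strand: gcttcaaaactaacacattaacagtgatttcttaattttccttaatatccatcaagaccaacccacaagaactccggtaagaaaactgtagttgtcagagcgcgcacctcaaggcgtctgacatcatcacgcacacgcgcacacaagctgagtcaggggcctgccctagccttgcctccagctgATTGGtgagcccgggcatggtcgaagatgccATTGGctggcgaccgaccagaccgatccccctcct
Fdps, chr2:176804817-176805066, minus strand: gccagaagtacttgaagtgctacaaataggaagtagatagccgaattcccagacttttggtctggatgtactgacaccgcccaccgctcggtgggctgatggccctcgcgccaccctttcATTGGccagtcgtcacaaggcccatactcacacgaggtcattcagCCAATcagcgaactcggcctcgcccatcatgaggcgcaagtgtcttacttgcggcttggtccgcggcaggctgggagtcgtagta
Lss, chr20:12118231-12118480, minus strand: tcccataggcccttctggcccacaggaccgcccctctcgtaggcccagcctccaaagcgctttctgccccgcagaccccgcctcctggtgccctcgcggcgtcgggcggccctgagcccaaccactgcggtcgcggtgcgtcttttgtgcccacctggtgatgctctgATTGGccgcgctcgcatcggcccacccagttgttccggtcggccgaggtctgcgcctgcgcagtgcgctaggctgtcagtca
The NF-Y box occurred in the window of 4 of 6 genes (Hmgcs1, Idi1, Fdps and Lss), and in 37.5% of all 33469 windows of the table. The Sp1 box GGGCGG, also searched on both strands, occurred in 5 of 6 windows, all but that of Idi1, against 33.1% of all windows. The core of a sterol regulatory element, searched as TCACNCCAC on both strands, occurred in 0 of 6 windows and in 1.12% of all windows. Other forms of that element were not searched. With so rare a pattern, 0 of 6 does not show that these windows lack the element. Hmgcs1, Idi1 and Fdps had 2 NF-Y boxes each and Lss had 1. These matches are descriptions of letters in 1 short window, and GRCr8 is not the build to which the reads were aligned.

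Depth ranged from 10057787 to 16002410 read-pairs on genes per rat. The title recorded with the counts of single rats named another group than the table of all rats for 17 of 18 rats, although the counts themselves were identical by rat number in 18 of 18, and the groups here are those of the table. The share of read-pairs that fell on no annotated feature (no-feature share) ranged from 30.8% to 34.6%, and rats 11 (bPYX+NT3, 30.8%) and 57 (bPYX+GFP, 31.7%) were lowest. By group it ran from 32.5% to 34.6% in naïve, from 31.7% to 34.2% in GFP and from 30.8% to 34.2% in NT3 rats. Levels below are normalized read-pairs, which are counts scaled to the mean effective library size of the 18 rats. No transcript lengths were used, so levels are compared between rats and not between genes.

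Differences between groups were small for all 8 genes. After injury with GFP, 6 of 8 genes had a negative log2 fold change against naïve rats, and 0 of 8 were called, that is, reached an unadjusted p under 0.05 in edgeR, the threshold the study used, where 3.25% of all 11601 genes tested did (0.733% higher and 2.52% lower). The median log2 fold change of the 8 was -0.11, beside 0.01 over all genes. With NT3, 2 of 8 were called against naïve rats, where 6.01% of all genes were called (3.09% higher and 2.92% lower), namely Idi1, which was lower, and Lss, which was higher. Between NT3 and GFP rats 0 of 8 were called (1.73% of all genes, 1.08% higher and 0.654% lower), and with both injured groups against naïve rats 1 of 8, Hmgcs1, was lower (4.16% of all genes, 1.2% higher and 2.96% lower). By edgeR's quasi-likelihood test with Benjamini-Hochberg adjustment over all genes, 0 of 8 genes passed in any comparison. The members' lowest adjusted p was 0.9998 for GFP and 0.607 for NT3 against naïve rats, 0.851 between them and 0.901 for both injured groups. In every comparison the groups overlapped for 8 of 8 genes. The comparisons with naïve rats share the 6 naïve rats, so their values are given side by side and were not compared with each other. Grouped by the recorded titles instead, 5 of 8 log2 fold changes against naïve rats with GFP and 8 of 8 with NT3 had the opposite sign, and 0 of 8 were called with NT3.

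**Figure D1:**
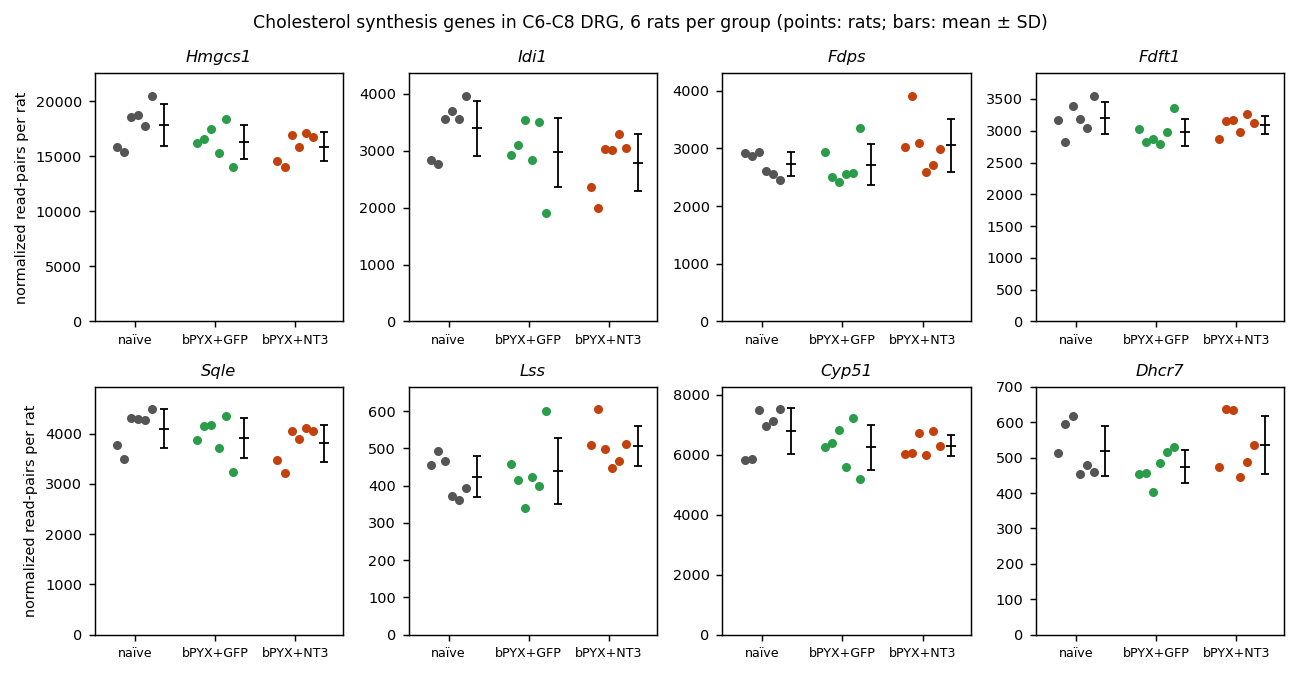
Normalized read-pairs of each of the 8 genes (y axes from 0), with 1 point per rat and the mean ± SD of 6 rats beside each group. The groups overlap for every gene, and the rat with the lowest Idi1 and Hmgcs1 among GFP rats (rat 57) has the highest Fdps and Lss of that group.

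Hmgcs1, the entry enzyme, ranged from 15419 to 20510 normalized read-pairs in naïve rats (median 18176), from 14041 to 18394 in GFP rats (median 16416) and from 14058 to 17169 in NT3 rats (median 16318). All 6 NT3 rats and 5 of 6 GFP rats were below the naïve median, with the ranges overlapping. The log2 fold change of both injured groups against naïve rats was -0.14 ± 0.0682 (SE, 12 against 6 rats; unadjusted p = 0.0482 and adjusted p = 0.901 in edgeR; two-sided exact permutation p = 0.0535). Taken apart, it was -0.12 ± 0.0818 for GFP (exact permutation p = 0.184) and -0.17 ± 0.0803 for NT3 (exact permutation p = 0.0779), and the injured groups differed by -0.04 ± 0.0713. The call on both injured groups was lost without any 1 of rats 2, 5, 11, 15, 21, 23, 43, 44, 45, 49 and 57, and was not made by DESeq2. These are whole ganglia, so fewer cells of a type and less RNA per cell cannot be told apart.

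Idi1, the isomerase, had the widest spread of the 8, from 2773 to 3965 in naïve rats (median 3552), from 1899 to 3540 in GFP rats (median 3017) and from 1995 to 3301 in NT3 rats (median 3022). All 12 injured rats were below the naïve median, but 2 naïve rats (41 and 42) lay among them. Against naïve rats the log2 fold change was -0.28 ± 0.127 in NT3 rats (unadjusted p = 0.0413, adjusted p = 0.607 in edgeR; exact permutation p = 0.0649) and -0.19 ± 0.135 in GFP rats (exact permutation p = 0.238). The edgeR call on NT3 rats was lost without any 1 of rats 2, 11, 43, 44, 45 and 49. With a term for the no-feature share in the fit, the log2 fold change after NT3 was -0.15 and not called, and that after GFP was -0.18 and called. For these altered fits the share of all genes called is not given here.

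Fdps, the farnesyl diphosphate synthase, ranged from 2458 to 2944 in naïve rats (median 2738), from 2411 to 3348 in GFP rats (median 2562) and from 2582 to 3912 in NT3 rats (median 3007). The highest value of each injured group belonged to rat 57 and rat 11, and the other injured rats lay between 2411 and 3093. The log2 fold change was 0.00 ± 0.0851 in GFP rats and 0.16 ± 0.0898 in NT3 rats against naïve rats (exact permutation p = 0.913 and 0.134). Between NT3 and GFP rats it was 0.17 ± 0.109 (exact permutation p = 0.173), and 0.23 and called when rat 57 was left out. It was also called, at 0.21, against naïve rats without rat 23. Without rat 57, 19.8% of all genes were called between the injured groups, against 1.73% with it. The share without rat 23 is not given here.

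Fdft1, the squalene synthase, varied least. It ranged from 2830 to 3549 in naïve rats (median 3177), from 2786 to 3360 in GFP rats (median 2925) and from 2865 to 3257 in NT3 rats (median 3136), and its coefficient of variation within a group was between 4.66% and 7.87%. Its log2 fold change from naïve rats was -0.10 ± 0.0669 after GFP (exact permutation p = 0.121) and -0.05 ± 0.06 in NT3 rats (exact permutation p = 0.42). Without rat 57 the difference in GFP rats was -0.14, and without rat 42 it was also -0.14, and Fdft1 was called in either case. The share of all genes called in those fits is not given here.

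Sqle, the squalene epoxidase, ranged from 3485 to 4488 in naïve rats (median 4284), from 3243 to 4341 in GFP rats (median 4007) and from 3227 to 4122 in NT3 rats (median 3973). As for Hmgcs1 and Idi1, the lowest values were those of rats 11 and 57 and the highest that of naïve rat 49. Its log2 fold change was -0.07 ± 0.0794 in GFP rats and -0.11 ± 0.0803 in NT3 rats against naïve rats (exact permutation p = 0.444 and 0.21).

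Lss, the lanosterol synthase, ranged from 362 to 493 in naïve rats (median 426), from 340 to 600 in GFP rats (median 419) and from 447 to 606 in NT3 rats (median 505). All 6 NT3 rats were above the naïve median and above the GFP median, with the ranges overlapping. The log2 fold change of NT3 against naïve rats was 0.25 ± 0.0948 (95% confidence interval 0.05 to 0.46; unadjusted p = 0.0179 and adjusted p = 0.607 in edgeR; exact permutation p = 0.0281). The call was kept without each of the 12 rats in turn, with log2 fold changes from 0.20 to 0.31, and with a term for the no-feature share, where it was 0.16. For these altered fits the share of all genes called is not given here. Against GFP rats the log2 fold change was 0.20 ± 0.125 (exact permutation p = 0.115). Without rat 57 it was 0.31 and called, in the fit where many more of all genes were called. The GFP rats themselves were 0.06 ± 0.127 from naïve rats (exact permutation p = 0.79).

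Cyp51, the lanosterol demethylase, ranged from 5816 to 7528 in naïve rats (median 7059), from 5207 to 7234 in GFP rats (median 6331) and from 5980 to 6801 in NT3 rats (median 6166). All 6 NT3 rats and 5 of 6 GFP rats were below the naïve median, and 2 naïve rats (41 and 42) were lower still than every NT3 rat. Its log2 fold change from naïve rats was -0.12 ± 0.0914 after GFP and -0.11 ± 0.0762 after NT3 (exact permutation p = 0.251 and 0.21). Dhcr7, the reductase at the end of the pathway, ranged from 452 to 616 in naïve rats (median 497), from 403 to 530 in GFP rats (median 470) and from 445 to 637 in NT3 rats (median 511). Its log2 fold change was -0.13 ± 0.0949 in GFP rats, 0.04 ± 0.111 in NT3 rats, and 0.18 ± 0.106 between NT3 and GFP rats (exact permutation p = 0.232, 0.732 and 0.16).

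**Figure D2:**
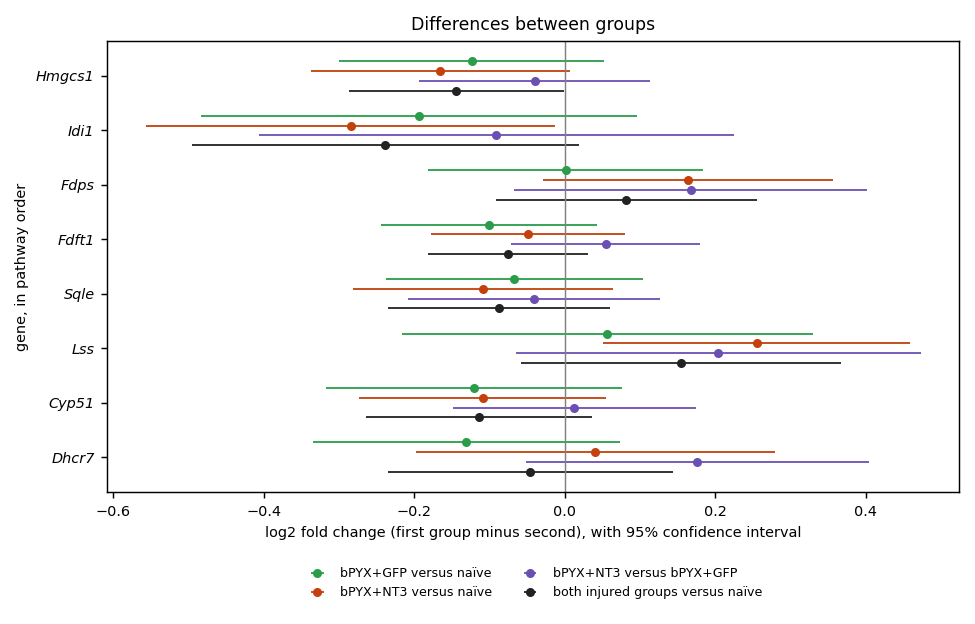
Log2 fold change (x axis) of each of the 8 genes in the 4 comparisons, with the 95% confidence interval of edgeR's fit. The intervals exclude 0 for Idi1 and Lss in NT3 against naïve rats and for Hmgcs1 in both injured groups against naïve rats, without adjustment for the genes tested.

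Over the 8 genes, the 95% confidence intervals of the log2 fold change lay between -0.48 and 0.33 for GFP against naïve rats, between -0.56 and 0.46 for NT3 against naïve rats and between -0.41 and 0.47 for NT3 against GFP rats. The share of the variance of log2 CPM that lay between the 3 groups ranged from 10.0% for Sqle to 26.4% for Lss, so that most of the spread of each gene was between rats of a group. From the lowest to the highest of the 18 rats, levels differed 2.09-fold for Idi1, 1.78-fold for Lss, 1.62-fold for Fdps, 1.58-fold for Dhcr7, 1.46-fold for Hmgcs1, 1.45-fold for Cyp51, 1.39-fold for Sqle and 1.27-fold for Fdft1.

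Between rats, the 8 genes did not vary as 1 unit. Hmgcs1, Idi1, Sqle and Cyp51 varied together, Fdps, Lss and Dhcr7 varied together, and Fdps and Lss were high in the rats in which Hmgcs1, Idi1 and Sqle were low. Cyp51 was low where Lss was high (r = -0.60, rho = -0.52, adjusted permutation p = 0.0137 for r), while with Fdps it had r = -0.45 and rho = -0.41 and did not pass (adjusted permutation p = 0.0966). Rats 11 and 57, for example, had the highest Fdps (3912 and 3348) and Lss (606 and 600) of the 18 rats, and the 2 lowest values of Idi1 (1995 and 1899), Hmgcs1 (14058 and 14041) and Sqle (3227 and 3243). Naïve rat 49 showed the opposite, with the highest Idi1, Hmgcs1, Sqle and Cyp51 of all rats and an Fdps of 2458. The sets were named after the correlations had been seen.

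Of the 28 pairs of genes, 16 had a Pearson correlation of log2 CPM over the 18 rats with an adjusted p under 0.05 (permutation test with 100000 resamples, Benjamini-Hochberg over the 28 pairs), 9 of them positive and 7 negative. The same 16 pairs passed by Spearman's rho and after the mean of each group was subtracted. Positive correlations were frequent in the whole table, where 15.7% of all pairs of genes had r of 0.6 or more, against 9 (32.1%) of the 28. The share of all pairs that would pass the test, or have a negative r of this size, was not taken. The closest pair was Idi1 and Sqle, with r = 0.96 and rho = 0.97, then Hmgcs1 and Sqle with r = 0.95 and rho = 0.97 (adjusted permutation p = 5.6e-05 for r in both, from 1e-05, the smallest p the permutations can give). Across the 6 pairs among Hmgcs1, Idi1, Sqle and Cyp51, r ranged from 0.83 to 0.96, and within groups from 0.82 to 0.97. Fdps and Lss correlated at r = 0.91 and rho = 0.91 (adjusted permutation p = 5.6e-05), Fdps and Dhcr7 at r = 0.72 and rho = 0.67 (adjusted permutation p = 0.00124), and Lss and Dhcr7 at r = 0.67 and rho = 0.69 (adjusted permutation p = 0.00466).

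The strongest negative pair was Idi1 and Lss, with r = -0.84, rho = -0.72 and r = -0.86 within groups (adjusted permutation p = 7e-05 for the pooled r). Idi1 and Fdps followed with r = -0.80 and rho = -0.63 (adjusted permutation p = 0.000311). Without the 2 rats farthest from the median of the gene named first in a pair, r of the 9 positive pairs lay between 0.48 and 0.95 and that of the 7 negative pairs between -0.70 and -0.48. Without rats 11 and 57, 17 pairs passed, of which 13 had passed with them. The 3 pairs lost were all negative (Hmgcs1 and Fdps, Fdps and Sqle, Lss and Cyp51), and the 4 gained were Fdft1 with Hmgcs1, Idi1, Sqle and Cyp51, with r between 0.58 and 0.72. With all 18 rats, Fdft1 correlated with none of the other 7 genes past the threshold, and its r ranged from 0.11 with Idi1 to 0.38 with Hmgcs1.

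**Figure D3:**
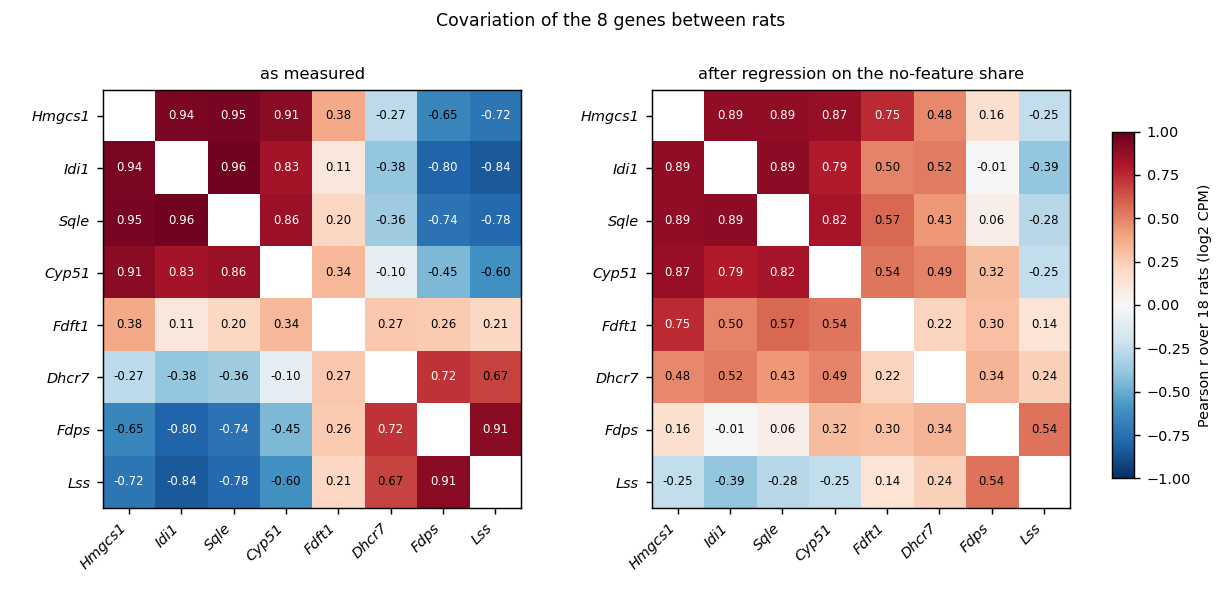
Pearson r of log2 CPM over 18 rats for each pair of the 8 genes, on the left as measured and on the right after regression of each gene on the no-feature share. On the left a positive set (Hmgcs1, Idi1, Sqle, Cyp51) has negative values with Fdps and Lss, the weakest for Fdps and Cyp51 (r = -0.45), and on the right the positive set remains at r between 0.79 and 0.89 while the negative values lie at -0.39 and above.

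The levels moved with the no-feature share of the library. Fdps decreased with it (r = -0.94, rho = -0.87, adjusted permutation p = 0.00016 for r over 16 relations), as did Lss (r = -0.87, rho = -0.87, adjusted permutation p = 0.00016) and Dhcr7 (r = -0.68, rho = -0.75, adjusted permutation p = 0.00477). Idi1 increased with it (r = 0.86, rho = 0.73, adjusted permutation p = 0.000213), as did Sqle (r = 0.80, rho = 0.70, adjusted permutation p = 0.00028), Hmgcs1 (r = 0.74, rho = 0.65, 0.00106) and Cyp51 (r = 0.58, rho = 0.57, 0.0196). Fdft1 did not pass (r = -0.16, rho = -0.16, adjusted permutation p = 0.551). Without rats 11 and 57, r was -0.84 for Fdps, -0.77 for Lss, -0.65 for Dhcr7, 0.66 for Idi1, 0.59 for Sqle, 0.57 for Hmgcs1 and 0.49 for Cyp51. Relations of this size were frequent in the table, where 23.5% of all 11767 gene symbols tested had r of 0.7 or more with the no-feature share and 25.0% had r of -0.7 or less. The levels also moved with depth. With log2 read-pairs of the library, in the same family of 16, r was 0.62 for Dhcr7 (rho = 0.66), 0.59 for Lss (0.63), 0.54 for Fdps (0.50), -0.54 for Sqle (-0.59) and -0.51 for Idi1 (-0.55), with adjusted permutation p of r from 0.0128 to 0.0418. Hmgcs1 (r = -0.49), Cyp51 (-0.37) and Fdft1 (0.03) did not pass (adjusted permutation p = 0.0515, 0.156 and 0.916). Without rats 11 and 57, r with log2 read-pairs was 0.55 for Dhcr7, 0.52 for Lss, 0.44 for Fdps, -0.45 for Sqle and -0.43 for Idi1.

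**Figure D4:**
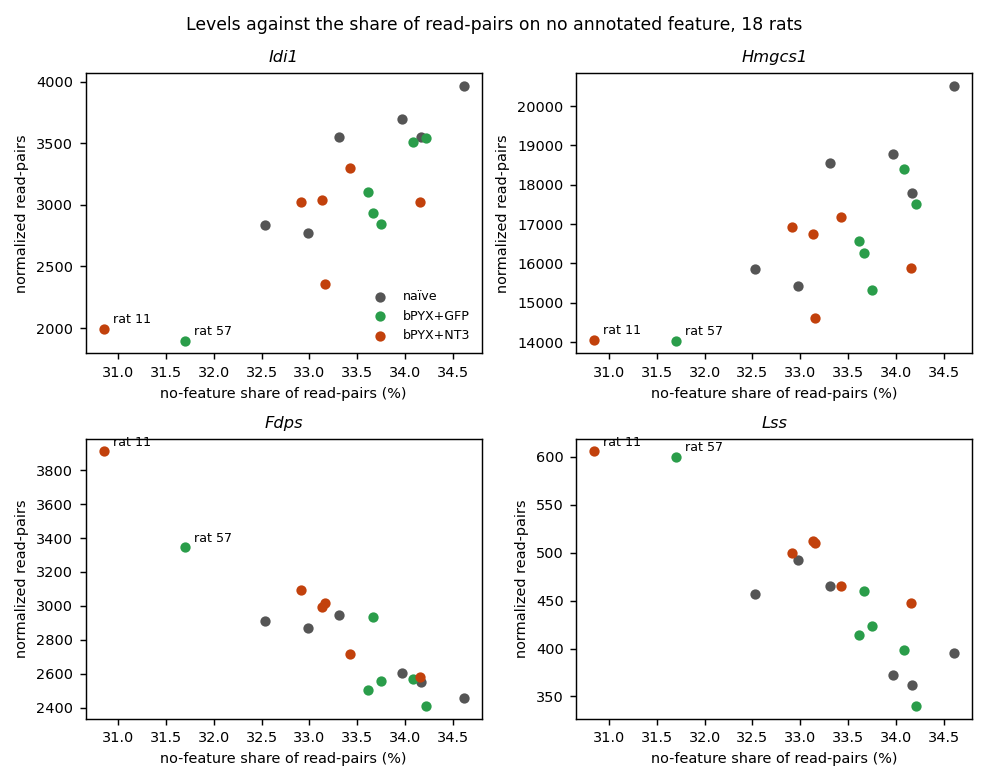
Normalized read-pairs of Idi1, Hmgcs1, Fdps and Lss (y axes not from 0) against the percentage of read-pairs on no annotated feature, with 1 point per rat coloured by group. Idi1 and Hmgcs1 are low and Fdps and Lss high in rats 11 and 57, which had the lowest shares, and the remaining 16 rats follow the same directions.

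After each gene was regressed on the no-feature share, 8 of the 28 pairs had an adjusted permutation p under 0.05, all positive. These were the 6 pairs among Hmgcs1, Idi1, Sqle and Cyp51, with r from 0.79 to 0.89, and Fdft1 with Hmgcs1 (r = 0.75, adjusted permutation p = 0.00172) and with Sqle (r = 0.57, adjusted permutation p = 0.0454). The negative pairs did not pass, with r = -0.39 for Idi1 and Lss and -0.01 for Idi1 and Fdps, and Fdps and Lss had r = 0.54 without passing. The share of all pairs of genes that would pass after the same regression was not taken. What sets the no-feature share in these libraries was not tested.

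Read against all pairs of genes, the members' positive correlations were more frequent at the high end. Of the 28 member pairs, 5 (17.9%) had r of 0.9 or more, where 1.81% of all pairs of genes did. At r of 0.7 or more it was 8 (28.6%), against 10.9% of all pairs. The contrast was smaller at r of 0.5 or more, with 9 (32.1%) against 20.7%. The 5 pairs at 0.9 or more were Hmgcs1 with Idi1, Sqle and Cyp51, Idi1 with Sqle, and Fdps with Lss. Within groups, 4 pairs reached 0.9. Pairs that share a gene are not independent, so these shares are a description. Among 11820 other identifiers ranked by r over the 18 rats, the gene nearest to Hmgcs1 was Sqle and the gene nearest to Sqle was Idi1, while for Cyp51 the member nearest to it (Hmgcs1) was rank 3 and for Idi1 (Sqle) rank 11. For Fdps and Lss the member nearest was the other of the pair, but only at rank 680 and rank 379. Among the genes with the highest mean r with the 8 members were Dhh (0.38), Art3 (0.36), Mmd2 (0.35), Map4k4 (0.35), Scrn1 (0.34), Socs2 (0.34), Igsf11 (0.34), Gcm2 (0.34) and Eci2 (0.33). Such a mean joins members of opposite direction. Socs2 had r = 0.79 with Hmgcs1 and -0.44 with Lss, and Igsf11 had 0.81 and -0.47, while Dhh had 0.51 and 0.01.

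Other enzymes of the pathway divided in the same way. Of 11 described here, Msmo1, Nsdhl and Sc5d, which act on sterols after lanosterol, and Ggps1, which makes geranylgeranyl diphosphate, had r of 0.7 or more with Idi1 over the 18 rats (0.88 to 0.94). The mevalonate enzymes Mvk, Pmvk and Mvd, with Tm7sf2, had r of -0.7 or less with Idi1 (-0.92 to -0.74). Mvk, Pmvk, Mvd, Acat2, Tm7sf2 and Ebp had r of 0.7 or more with Fdps (0.71 to 0.91). Hsd17b7 had r = 0.26 with Idi1, 0.10 with Fdps and 0.14 with the no-feature share. The other enzymes moved with that share. Their r with it was -0.94 for Pmvk, -0.93 for Mvk, -0.85 for Mvd, -0.78 for Acat2, -0.76 for Tm7sf2 and -0.59 for Ebp. It was 0.93 for Ggps1, 0.81 for Sc5d, 0.76 for Nsdhl and 0.75 for Msmo1. Their r with Idi1 and Fdps was not taken again after regression on the share. For comparison, 22.9% of all gene symbols had r of 0.7 or more with Idi1 and 23.8% of -0.7 or less. With Fdps, 24.9% had r of 0.7 or more.

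Between groups, 1 of these 11 enzymes was called in GFP and in NT3 against naïve rats, lower in both (2.52% and 2.92% of all genes were). This was Nsdhl, a sterol dehydrogenase, with a log2 fold change of -0.17 ± 0.0782 with GFP and -0.20 ± 0.0778 with NT3 (adjusted p = 0.9998 and 0.607 in edgeR). The injured groups did not differ past the threshold for any of the 11. The median log2 fold change of the 11 was -0.02 in GFP and 0.09 in NT3 rats against naïve rats. Mvk and Mvd, which had few read-pairs, had the widest differences in NT3 rats, 0.73 ± 0.375 and 1.19 ± 0.609, and were not called. The intervals of the other 9 were narrower, and those of Acat2, Pmvk, Ggps1, Tm7sf2, Msmo1, Hsd17b7, Ebp and Sc5d included 0 in both comparisons with naïve rats.

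**Figure D5:**
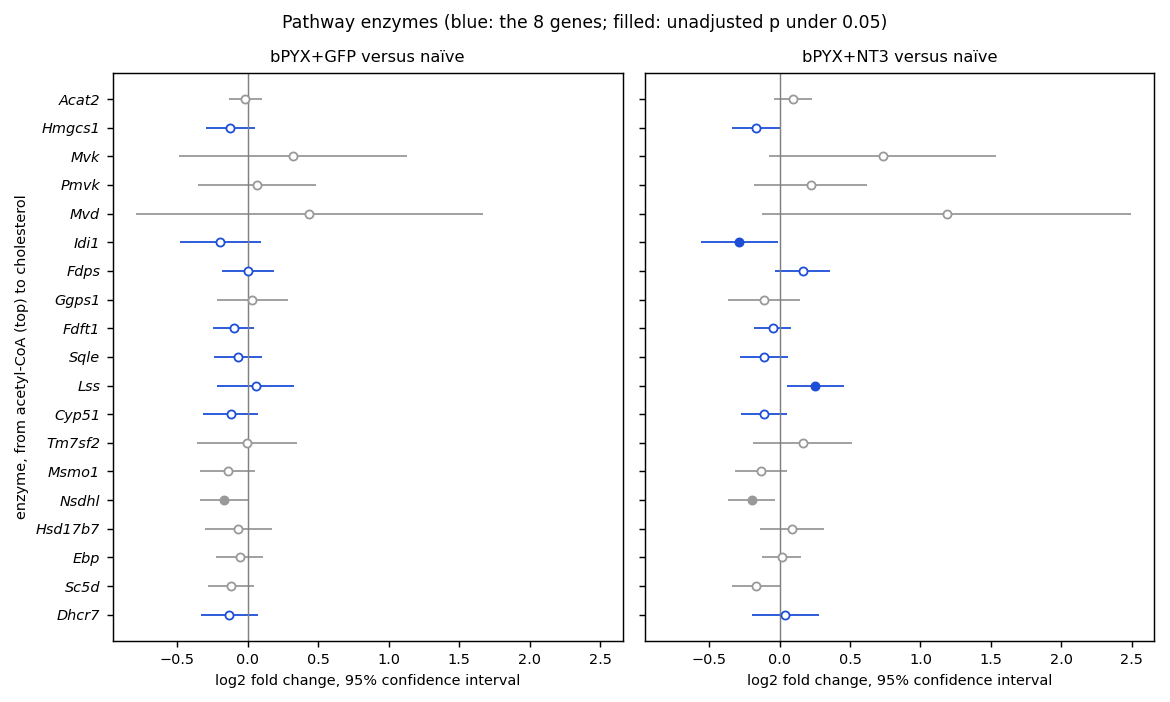
Log2 fold change with 95% confidence interval (x axis) of the 8 genes and 11 other enzymes in pathway order, for GFP (left) and NT3 rats (right) against naïve rats, with the 8 genes in blue and calls at an unadjusted p under 0.05 filled. Nsdhl is filled and lower on the left, and Idi1, Nsdhl and Lss are filled on the right, with Lss the single filled point above 0.

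Genes that sense sterol and take up cholesterol were not called lower. Of 12 described here, 0 were called in GFP against naïve rats and 2 in NT3 against naïve rats, both higher, with a median log2 fold change over the 12 of 0.06 in each. They were Nr1h2, the oxysterol receptor LXR-beta (0.61 ± 0.271) and Scarb1, an HDL receptor (0.42 ± 0.173), each with an adjusted p of 0.607 in edgeR. Srebf2, the factor that raises the pathway, differed by 0.13 ± 0.0965 and was not called. Insig1, which holds the SREBP complex in the endoplasmic reticulum and is itself a target of SREBP, differed by -0.05 ± 0.0739 and was not called. Scap, Insig2, Mbtps1, Mbtps2, Mylip, Stard4, Nr1h3 and Lrp1 were not called in any comparison, and Srebf1, at or near 0 in the counts, was not tested.

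Across rats, Srebf2 was high where Fdps and Lss were high. Srebf2 had r = 0.89 and rho = 0.70 with Fdps (adjusted permutation p = 0.00024 and 0.00537 over 24 relations) and r = 0.79 and rho = 0.67 with Lss (0.00032 and 0.00689). With Idi1, Srebf2 had r = -0.77 (adjusted permutation p = 0.000912) but rho = -0.46 (0.0842), and r was -0.44 without rats 11 and 57, so that this relation rests on those rats. Insig1 had the opposite signs, with r = 0.81 and rho = 0.79 with Sqle (0.00032 for r), r = 0.76 with Hmgcs1 and with Idi1 and 0.68 with Cyp51, and r = -0.62 and rho = -0.56 with Lss (0.00962 for r). After regression on the no-feature share, Insig1 kept r = 0.80 with Sqle and 0.73 with Idi1, while Srebf2 had -0.17 with Idi1 and 0.53 with Fdps. Of the 24 relations of the 8 members with Srebf2, Insig1 and the neuronal marker Rbfox3, 18 had an adjusted permutation p under 0.05, and 18 did within groups.

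Other lists of lipid genes gave few calls. Of all genes, 6.01% were called in NT3 against naïve rats and 4.16% with both injured groups against naïve rats. Of 11 tested genes of fatty acid synthesis, 1 was called in NT3 against naïve rats, the desaturase Scd (-0.39 ± 0.129, adjusted p = 0.607 in edgeR), and its abundant relative Scd2 differed by -0.09 ± 0.057 and was not called. The elongase Elovl6 was called lower when the injured groups were pooled (-0.25 ± 0.115). Of 8 tested genes of other isoprenoid branches, 1, the prenyltransferase subunit Fnta, was called in NT3 against naïve rats (-0.18 ± 0.0769), and the most abundant of them with it, Nus1, was not (-0.07 ± 0.0798). Of 13 tested genes of cholesterol efflux, storage, transport and conversion, 0 were called in any comparison in edgeR at the unadjusted threshold, and the 2 with the most read-pairs, Apod and Lipa, differed by -0.04 ± 0.176 and -0.04 ± 0.0743 in NT3 against naïve rats.

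Markers of other cells were read beside these values. Of 11 markers of myelinating Schwann cells, 6 were called lower in GFP and 5 in NT3 rats against naïve rats. Of all genes, 2.52% and 2.92% were called lower. Of the 11, 0 passed adjustment in edgeR (lowest adjusted p = 0.461 with GFP and 0.607 with NT3). Their median log2 fold change was -0.31 and -0.25. Their summed level ranged from 3230 to 4981 CPM (read-pairs scaled to equal library size) in naïve, from 2584 to 3406 in GFP and from 2955 to 3563 in NT3 rats. The neuronal marker Rbfox3 had r = 0.85 and rho = 0.78 with Lss (adjusted permutation p = 0.00024 for r) and r = -0.82 and rho = -0.69 with Idi1 (0.00032 for r). After regression on the no-feature share, Rbfox3 had r = 0.51 with Lss and -0.44 with Idi1. The neuronal markers did not share 1 direction. As a description, r with Idi1 was -0.93 for Prph, -0.91 for Tubb3, -0.85 for Uchl1, -0.80 for Nefh and -0.34 for Stmn2, but 0.61 for Isl1, 0.49 for Nefm and 0.17 for Nefl. With Lss these last had r = -0.65, -0.53 and -0.26. Among the 11 Schwann cell markers, r with Idi1 was 0.82 for Ugt8, 0.71 for Mal, 0.66 for Pmp2 and 0.46 for Pmp22. It was 0.36 for Egr2, 0.22 for Fa2h, 0.08 for Mbp and -0.07 for Drp2. It was -0.34 for Mag, -0.59 for Prx and -0.67 for Ncmap, so these markers also did not share 1 direction. Of 5 fibroblast markers, 3 were called lower in each injured group, and 0 passed adjustment in edgeR. Their summed level ranged from 2120 to 3118 CPM in naïve, from 1938 to 2544 in GFP and from 1732 to 2826 in NT3 rats. The part of these cells in the levels of the 8 genes was not tested.

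Of the markers of satellite and immature glia, 8 of 9 were tested, with 0 called in GFP and 1 (Ngfr) higher in NT3 rats against naïve rats, and 1 (Kcnj10) higher in NT3 against GFP rats, and their summed level ranged from 1988 to 2389 CPM over the 18 rats. Of 9 tested neuronal markers 0 were called in any comparison, and their summed level ranged from 12483 to 17029 CPM, so that neuronal RNA was present in every library. Of 6 markers each of macrophages and leukocytes and of endothelium and mural cells, and of 2 of red blood cells, 0 were called in any comparison. Adipocyte markers summed to 8.26 to 105 CPM over the 18 rats. Of 4 tested, 1 (Adipoq) was called lower in NT3 against naïve rats and 3 against GFP rats. No marker called in this paragraph passed adjustment over all genes in edgeR. Of all genes, 6.01% were called in NT3 against naïve rats and 1.73% in NT3 against GFP rats. Snap25 and Slc1a3 were at or near 0 in the counts, and Rbfox3 was read as the neuronal gene in place of Snap25.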

How the data were processed

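Poly(A) RNA (TruSeq Stranded, 50 bp paired-end) was aligned by the authors to Rnor_6.0 with TopHat2, 1 of each set of duplicate reads was kept with Picard, and read-pairs per RefSeq identifier were counted with HTSeq. The authors deposited these raw counts, not normalized, per rat and as a table of all rats. bcl2fastq 1.8.4 is named in the submitters' processing notes. Symbols came from RefSeq (GRCr8), with 14193 of 15075 identifiers matched. Rows that name no gene entered neither library sizes nor tests. The rats are separate animals.

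Each pair of groups was fitted over the whole table in edgeR 4.0.16 (R 4.3.3) with TMM, estimateDisp and glmQLFTest, keeping genes above 10 reads in 6 or more rats. Both injured groups against naïve rats was a contrast in a fit of 3 groups and 18 rats. p-values were adjusted by Benjamini-Hochberg over all genes tested. The standard error is the log2 fold change over the square root of edgeR's F. Exact two-sided permutation tests (smallest p 0.00216 for 6 against 6) and correlations used log2 CPM with a prior count of 2. Correlations were tested by 100000 resamples and adjusted over the 28, 24 or 16 relations of a family. Fits were tested on simulated data with 200 changed genes. Python 3.11.15, numpy 2.4.6, pandas 2.3.3 and scipy 1.17.1 were used.

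Named genes were the 8 members, the other enzymes, the sterol sensing genes, called and most abundant genes of the other lists, defining genes of cell types and genes nearest to the members by mean r. Some genes of these lists are not reported here, and counts, medians and sums over a list leave them out. The members and lists were chosen with earlier results of these data known. Lbr, Faxdc2, Cyp46a1, Pdss1, Plin1, Ptprc, Hba1 and Hba2 were not matched. Rbfox3 took the place of Snap25 after the counts were seen. Alternatives were a likelihood ratio test, DESeq2 1.42.0, its size factors or library size alone, other filters, other samples in the fit, robust estimation, a term for the no-feature share, grouping by the recorded titles, and leaving out each rat. Leaving out rats 11 and 57 together and regression on the no-feature share before correlation were chosen after seeing the data.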

Additional observations from a re-analysis of the deposited data

How the results depend on the processing

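Grouping the rats by the recorded titles turned most directions. The groups of the table, used above, are those with which the study's fold changes of Adipoq were obtained again. Against naïve rats the log2 fold changes with GFP were then 0.00131 for Hmgcs1, 0.0689 for Idi1, -0.11 for Fdps, 0.0121 for Fdft1 and -0.0268 for Lss. With NT3 they were 0.17 for Hmgcs1, 0.25 for Idi1, -0.12 for Fdps, 0.12 for Fdft1, 0.12 for Sqle, -0.13 for Lss, 0.12 for Cyp51 and -0.00435 for Dhcr7. Between NT3 and GFP they were 0.17 for Hmgcs1, 0.18 for Idi1, -0.00769 for Fdps, 0.12 for Sqle and -0.10 for Lss, and in both injured groups 0.0893 for Hmgcs1, 0.16 for Idi1, -0.11 for Fdps, 0.0706 for Fdft1, 0.0624 for Sqle, -0.0729 for Lss and 0.0214 for Cyp51. Of the 8 genes, 0 were then called with NT3 against naïve rats, 2 between NT3 and GFP (Hmgcs1 and Cyp51) and 0 in both injured groups.

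For Fdps with GFP against naïve rats, near 0 throughout, the sign turned with library size alone (-0.00452), no filter on low counts (-0.00163), 1 fit over the 3 groups (-0.00172) and a term for the no-feature share (-0.0187). That term also gave -0.065 for Dhcr7 with NT3 against naïve rats, and 0.00945, 0.0645 and 0.0229 for Hmgcs1, Idi1 and Sqle between NT3 and GFP. The counts of called genes with GFP against naïve rats were 1 with library size alone (Hmgcs1) and 2 with that term (Hmgcs1 and Idi1). With NT3 against naïve rats they were 1 in the fit over 3 groups and 1 with that term (Lss in both). In both injured groups they were 0 with DESeq2, 0 with its size factors in edgeR, 2 with library size alone and 2 with that term (Hmgcs1 and Idi1 in both of the last). After regression on the no-feature share, 8 pairs of genes were correlated. The cause was not tested for any of these.

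Leaving out 1 rat at a time gave 0 to 1 called genes with GFP against naïve rats, 1 to 3 with NT3 against naïve rats, 0 to 2 between NT3 and GFP (2 without rat 57), 0 to 4 in both injured groups (4 without rat 42) and 16 to 17 correlated pairs. Signs turned within these ranges for Fdps (-0.0721 to 0.0311) and Lss (-0.061 to 0.12) with GFP and Dhcr7 with NT3 (-0.0155 to 0.097) against naïve rats, for Cyp51 between NT3 and GFP (-0.0348 to 0.0566) and for Dhcr7 in both injured groups (-0.0817 to 0.00991). The counts of called genes in this section are given without the share of all genes called in the same fit. That share also rose between NT3 and GFP rats without rat 57, so the counts were not read as particular to the 8 genes. Of the values for single genes, 663 kept their direction and side of the threshold, 45 turned, 23 passed it and 21 no longer did. DESeq2 called 16 genes at an adjusted p under 0.05 with GFP and 25 in both injured groups against naïve rats, none of them among the 8. No paired analysis was possible because the rat numbers of the table differ between the groups.

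With 6 rats per group, the 95% confidence intervals of the log2 fold changes of the 8 genes lay between -0.56 and 0.47 over pairs of groups, and Lss and Dhcr7 rest on the fewest read-pairs. The no-feature share was not balanced between single rats, and its range lay lower in NT3 than in naïve rats. Idi1, lower in NT3 rats, increased with the share, and Lss, higher in NT3 rats, decreased with it. The cause of these differences was not tested. Rats 11 and 57 were the only 2 rats left out together over all pairs. Mean level over a whole ganglion mixes neurons and glia.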
